A study of Mus musculus with 18 samples.

Results

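The genes described here are 4 guanylate-binding protein genes, Gbp3, Gbp5, Gbp7 and Gbp10, and Gvin1, which encodes a very large interferon-inducible GTPase. They were chosen by gene name in the authors' deposited table of Cuffdiff comparisons, and all 5 were found, of 5455 named genes with a row between the groups used here. Each had 1 transcript entry, and together they had 26 rows. The cells were RAW264.7, a macrophage-like mouse line, sampled in 6 groups of 3. Construct cells carried a lentiviral, doxycycline-inducible mouse Cited1 (labelled p2080) and were given doxycycline with interferon-gamma, interferon-gamma alone, doxycycline alone, or neither. Parental RAW264.7 cells without the construct were given doxycycline or left untreated. Doxycycline was used at 100 ng/mL and interferon-gamma at 200 U/mL, parental cells were not stimulated, and the labels do not say whether the construct line is 1 clone or whether replicate samples were grown as separate cultures. The comparisons ask how interferon-gamma and the induction of CITED1, a transcriptional co-regulator that does not bind DNA itself, changed gene expression. The table gives 1 fold, 1 summed FPKM (fragments scaled to transcript length and library size) and 1 q-value per pair of groups, so no value has an SD, an n or a known depth, and values per sample cannot be shown. Rows are limited to at least 2-fold, a q of 0.05 or less and a summed FPKM of at least 0.55. A gene without a row is therefore not shown to be unchanged. Each group's level below is an FPKM value solved from a row's fold and its sum.

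Guanylate-binding proteins are large GTPases that interferon-gamma induces strongly in macrophages. They assemble on pathogen vacuoles and on bacteria in the cytosol, and they promote lysis of the vacuole and activation of inflammasomes. Their transcription follows the JAK-STAT pathway, through interferon-gamma-activated sites (GAS) and interferon-stimulated response elements (ISRE) in their promoters. In the mouse they form a pair of gene clusters. Gbp3, Gbp5 and Gbp7 lie in the cluster on chromosome 3 and Gbp10 in that on chromosome 5, while Gvin1 lies on chromosome 7 beside related genes and pseudogenes.

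Promoter sequences from RefSeq (GRCm38.p6) are shown for the 3 members with an entry in the table used, Gbp3, Gbp5 and Gbp7. These were listed as higher with interferon-gamma, as were Gbp10 and Gvin1. Gbp10 and Gvin1 had no entry. Each line runs 5′ to 3′ and ends before the first annotated exon, and capitals mark matches to TTCNNNGAA (GAS, the same on both strands) or to TTTCNNTTTC or GAAANNGAAA (the core of an ISRE on either strand).
Gbp5, chr3:142496684-142496899, plus strand: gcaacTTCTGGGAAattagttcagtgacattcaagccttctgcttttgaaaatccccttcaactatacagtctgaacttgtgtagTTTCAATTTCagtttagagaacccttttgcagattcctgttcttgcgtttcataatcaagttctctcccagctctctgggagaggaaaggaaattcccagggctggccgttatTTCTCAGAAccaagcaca
Gbp7, chr3:142530086-142530335, plus strand: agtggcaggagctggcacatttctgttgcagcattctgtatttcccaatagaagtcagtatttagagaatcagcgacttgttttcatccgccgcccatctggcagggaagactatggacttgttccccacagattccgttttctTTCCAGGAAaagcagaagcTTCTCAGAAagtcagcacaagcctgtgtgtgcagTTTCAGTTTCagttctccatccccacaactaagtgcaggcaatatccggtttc
Gbp3, chr3:142559794-142560015, plus strand: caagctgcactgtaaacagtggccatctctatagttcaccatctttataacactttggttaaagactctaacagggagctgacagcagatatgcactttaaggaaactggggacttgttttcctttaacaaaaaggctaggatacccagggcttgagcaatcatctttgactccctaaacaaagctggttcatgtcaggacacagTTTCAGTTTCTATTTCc
In the 250 bases before the RefSeq start, Gbp5 and Gbp7 each held 2 GAS matches and 1 ISRE match. The sequence TTCTCAGAA lay at -52 to -44 in Gbp5 and at -87 to -79 in Gbp7, counted from the start site. Gbp3 held no GAS match and 2 ISRE matches, at -45 to -36 and at -39 to -30, which overlap each other. A further RefSeq start of Gbp3 had neither match in its window, and the deposited Gbp3 entry begins downstream of both starts in the GENCODE M21 annotation. Of all 32851 promoter windows of this length, 7.02% held a GAS match, 2.98% an ISRE match and 0.332% both. A match describes these letters only and was not tested as a binding site.

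How far each transcript can be told from its relatives differed widely among the 5 genes. Of the 50-base windows of the Gbp5 transcript (ENSMUST00000090127, 3055 bases), 0.898% also occurred in a transcript of another gene in GENCODE M21. For Gbp3 (ENSMUST00000106221, 2682 bases) the share was 4.79%, and every one of these windows was in Gbp7. For Gbp7 (ENSMUST00000045097, 5614 bases) it was 12.8%, mostly with a processed pseudogene, Gm43802, annotated within the gene on the same strand. Gbp10 (ENSMUST00000065588, 3528 bases) shared 82.5% of its windows. Its main partner was Gm43302, which overlaps it on the same strand and held 79.2% of them, and 70.6% were also in Gbp6. For Gvin1 (ENSMUST00000006667, 8795 bases) 99.1% of windows were shared, and 98.3% were in Gm4070, a protein-coding copy 203 kb away on the same chromosome. The labels do not state how the authors assigned reads that fit several genes, so the levels of Gbp10 and Gvin1 are uncertain.

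**Figure D1:**
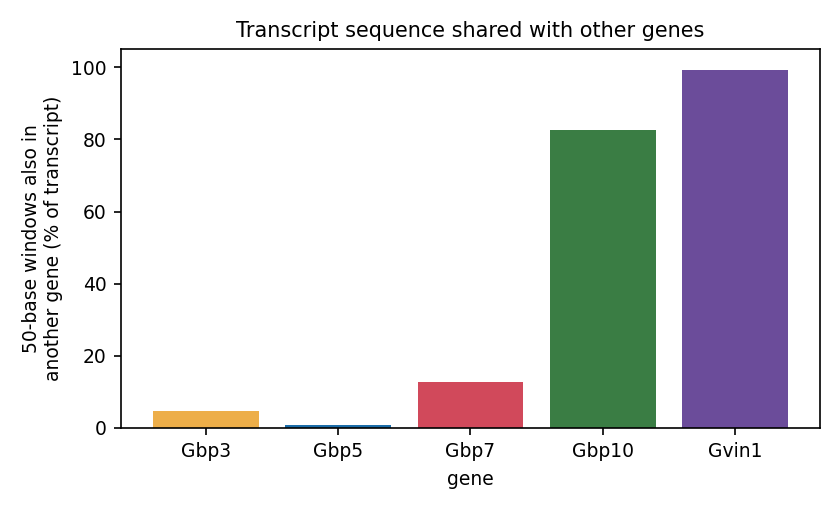
Share of the 50-base windows of each deposited transcript that also occur in a transcript of another gene of GENCODE M21 (% of windows, 1 bar per gene). Gbp5 at 0.898% and Gbp3 at 4.79% were nearly distinct, whereas Gbp10 at 82.5% and Gvin1 at 99.1% were not.

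All 26 rows of the 5 genes were comparisons of a group given interferon-gamma with a group not given it, and all 26 were higher in the stimulated group. For 24 rows the q-value in the authors' deposited table was the smallest it lists, 3.9e-04. The other 2 rows were those of Gbp10, with a q of 0.0322 against untreated construct cells and 0.00272 against untreated parental cells in the authors' deposited table. Parental cells were not stimulated, so rows that set a stimulated construct group against a parental group differ in the construct as well, and the 2 cannot be told apart there. In bulk RNA, fewer responding cells and less RNA per cell cannot be told apart either.

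Interferon-gamma without doxycycline raised all 5 genes in construct cells. In that comparison 25.7% of the named genes in the table were listed as higher and 24.5% as lower. Only genes with a row could be included, and every row of Gbp5, Gbp10 and Gvin1 names the group given interferon-gamma alone. That all 5 were higher therefore largely follows from how the genes were chosen, and the share is no test of it. Gbp5, a GTPase known to promote NLRP3 inflammasome assembly, stood at 217 FPKM with interferon-gamma and at 0.108 FPKM in untreated construct cells. The authors' deposited table gives Gbp5 a fold of 2006, first by fold of the 1414 genes with a higher entry. Gbp10 had 28.1 FPKM with interferon-gamma and 0.0577 FPKM without treatment, and its deposited fold of 487 ranked 4 in the authors' deposited table.

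Gbp7, described in mouse macrophages as recruiting oxidase and autophagy proteins to bacteria, had 65.0 FPKM with interferon-gamma and 0.509 FPKM in untreated construct cells. Its fold in the authors' deposited table was 128, at rank 16. Gbp3 had 60.8 FPKM with interferon-gamma and 0.598 FPKM untreated, and a fold of 102 at rank 21 in the authors' deposited table. Gvin1 reached only 1.40 FPKM with interferon-gamma, against 0.0701 FPKM untreated, and its fold of 20.0 in the authors' deposited table ranked 84. The median fold of the 5 genes was 128, and that of all genes with a higher entry was 2.90, both from the authors' deposited table. The 5 genes were chosen with earlier results of these data known, and every row of Gbp5, Gbp10 and Gvin1 names this stimulated group. This contrast and the ranks are therefore descriptions and no test. By rebuilt FPKM the order with interferon-gamma alone was Gbp5, Gbp7, Gbp3, Gbp10 and Gvin1. Gbp5 was more than 3 times as abundant as Gbp7, while Gbp7 and Gbp3 were close, and no replicate spread is available to tell such neighbours apart.

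The other 3 comparison groups gave folds of the same kind. Against construct cells with doxycycline, where 25.7% of named genes were listed as higher, 4 of the 5 genes had a row with interferon-gamma alone, at folds of 31.9 for Gvin1 to 1622 for Gbp5 in the authors' deposited table. Against parental cells with doxycycline, where 26.1% were listed as higher, the same 4 had folds of 12.1 for Gvin1 to 2737 for Gbp5 in the authors' deposited table. Against untreated parental cells, where 26.4% were listed as higher, all 5 had a row, at folds of 11.2 for Gvin1 to 1524 for Gbp5 in the authors' deposited table. Gbp5 ranked first in each of them.

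**Figure D2:**
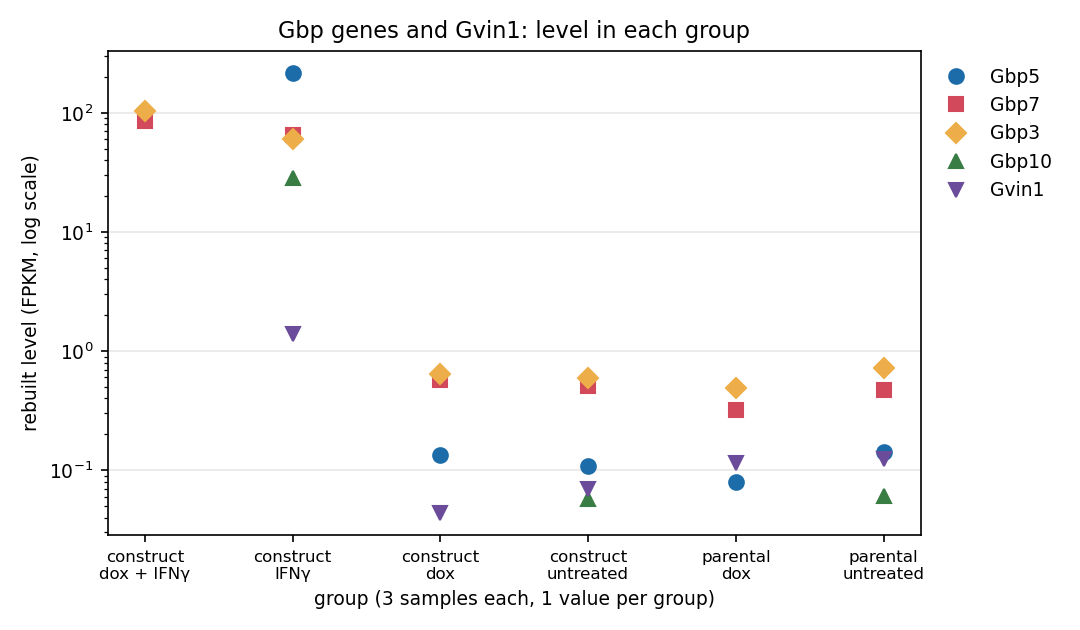
Rebuilt FPKM (log axis) of each gene in the 6 groups, 1 value per group of 3 samples without error, with the groups given interferon-gamma at the left. The stimulated values run upward from 1.40 FPKM and the unstimulated ones reach 0.727 FPKM at most, and a missing symbol means that no level could be rebuilt.

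With doxycycline present, so with CITED1 induced, Gbp3 and Gbp7 again rose with interferon-gamma, where 33.7% of the named genes were listed as higher and 34% as lower. Cited1 itself had rebuilt levels of 86.7 FPKM with both treatments, 11.5 with interferon-gamma, 168 with doxycycline and 0.703 in untreated construct cells. Gbp3 had 104 FPKM with both treatments, against 0.648 FPKM with doxycycline alone, which is a fold of 161 in the authors' deposited table, at rank 16 of 1845. Gbp7 had 85.5 FPKM with both treatments and 0.573 FPKM with doxycycline alone. Its fold was 149 in the authors' deposited table, at rank 19. Gbp3 and Gbp7 also had the 2 member rows against untreated construct cells, where 33.8% of named genes were listed as higher, against parental cells with doxycycline, where 33% were, and against untreated parental cells, where 34% were. Their folds there were 143 to 266 in the authors' deposited table. By rebuilt level Gbp3 lay above Gbp7. With interferon-gamma alone their order was the reverse, but the levels were close, at 65.0 FPKM for Gbp7 and 60.8 FPKM for Gbp3. No replicate spread is available for either order.

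No level with both treatments can be rebuilt for Gbp5, Gbp10 and Gvin1, which have no row naming that group. Their response with CITED1 induced is therefore not given here. Of 1785 entries listed as higher with interferon-gamma alone against untreated construct cells, 188 (10.5%) lacked any row that names the doubly treated group. Among the 23 entries with a fold of at least 100, 21 had such a row, and the 2 without were Gbp5 and Gbp10. The entry named for Gbp6 and Gm43302 jointly, in the same cluster as Gbp10, had rows only for interferon-gamma alone against the parental groups. It had 12.2 FPKM with interferon-gamma, against 0.0806 FPKM in parental cells with doxycycline and 0.113 FPKM in untreated parental cells.

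**Figure D3:**
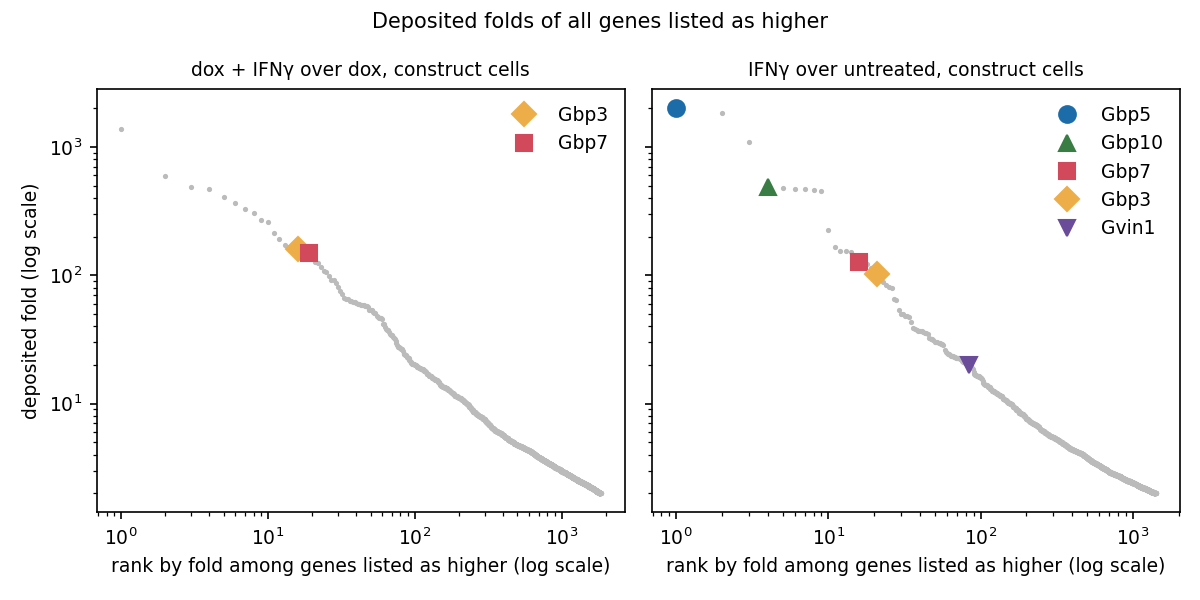
Deposited folds (log axis) of every gene with a higher entry, ranked (log axis), for interferon-gamma with doxycycline over doxycycline (left) and interferon-gamma over no treatment (right) in construct cells. Gbp5 is first in the right panel at 2006-fold and Gvin1 stands at rank 84, and only Gbp3 and Gbp7 have a value in the left panel.

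Doxycycline in stimulated construct cells, which induces CITED1, gave no row for any of the 5 genes, in a comparison where 6.84% of named genes were listed as higher and 6.34% as lower. No parental cells were given both treatments, so doxycycline itself and CITED1 cannot be told apart in this comparison. The rebuilt level of Gbp3 was 104 FPKM with both treatments and 60.8 FPKM with interferon-gamma alone, a ratio of 1.72 (0.78 on the log2 scale). That of Gbp7 was 85.5 FPKM with both treatments and 65.0 FPKM with interferon-gamma alone, a ratio of 1.32 (0.40 on the log2 scale). Both ratios were above 1 and under the 2-fold limit of the table, so neither difference has a q-value. Over the 1597 entries listed as higher with interferon-gamma alone for which both levels could be rebuilt, the median of this ratio was 1.28 and the quartiles were 1.04 and 1.61. The 188 of 1785 entries without a row naming the doubly treated group are left out, which may shift this median and these quartiles. Gbp7 lay near that median and Gbp3 above the upper quartile.

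Set side by side, the interferon-gamma folds with and without doxycycline were 161 and 102 for Gbp3, whose ratio was 1.58, and 149 and 128 for Gbp7, whose ratio was 1.17, in rebuilt FPKM. Whether the response differed with doxycycline was not tested, since that needs values per sample.

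Other interferon-inducible GTPases give a setting for these ratios. Of 33 symbols of such genes, 5 had a row under their own symbol in the comparisons used here. The joint entry of Gbp6 and Gm43302 was not counted, and Gvin-ps7 was not in the list, although both have rows. With interferon-gamma alone, 4 of these 5 genes were higher than in untreated construct cells and 0 lower, against 25.7% higher over all named genes with a row. The median fold of the 4 was 81.9 in the authors' deposited table. Listed symbols without a row are not shown to be unchanged. Gm12250, the gene of the immunity-related GTPase Irgb10, had 64.1 FPKM with interferon-gamma and 0.138 FPKM untreated. Mx1, which encodes an antiviral dynamin-like GTPase, had 14.1 FPKM with interferon-gamma and 0.0919 FPKM untreated. Mx2 and the pseudogene Gvin-ps1 were 10.8-fold and 10.2-fold higher in the authors' deposited table.

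When doxycycline was added to interferon-gamma, 4 of these 5 genes were called higher and 0 lower. Over all named genes with a row, 6.84% were higher and 6.34% lower. Listed symbols without any row are not in this count, and the only row of Gbp11 is in this comparison. Mx1 was 4.95-fold, Mx2 2.49-fold, Gbp11 2.46-fold and Gm12250 2.15-fold higher in the authors' deposited table. Gbp11, of the chromosome 5 cluster and annotated as a polymorphic pseudogene, had 3.96 FPKM with both treatments and 1.61 FPKM with interferon-gamma alone. Since the table lists only folds of at least 2, that these 4 genes have higher ratios than Gbp3 and Gbp7 follows from their having a row. Gbp7 lay between the ratios of the Gvin pseudogene entries, at 1.59 for Gvin-ps1 and 1.26 for a locus entry of Gvin-ps7, neither of which has a row. Gbp3 lay above both. The difference in ratio between Gbp3 or Gbp7 and these genes was not tested.

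**Figure D4:**
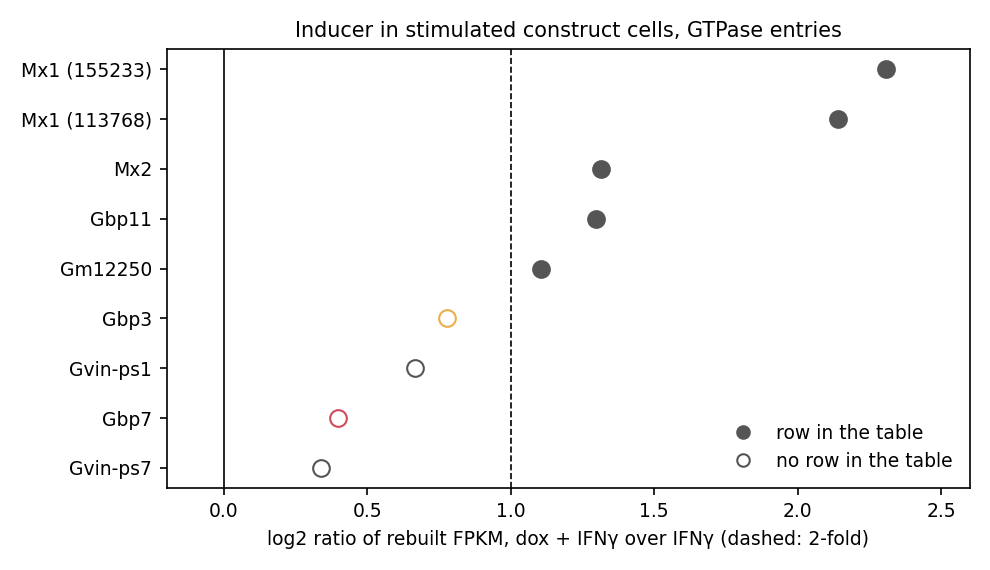
Log2 ratio of rebuilt FPKM with doxycycline and interferon-gamma over interferon-gamma alone in construct cells, for each GTPase entry with both levels, filled where the authors' table lists the pair. Gbp3 is at 0.78 and Gbp7 at 0.40, and the dashed line is the table's own 2-fold limit, which listed entries pass by construction.

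Without interferon-gamma all 5 genes were low, and no pair of unstimulated groups had a row for any of them. The share of named genes listed in either direction was 0.403% for doxycycline in construct cells, 4.49% for construct against parental cells without doxycycline, 5.61% for the same with doxycycline and 0.898% for doxycycline in parental cells. For the pairs that differ in both, it was 6.65% for construct cells with doxycycline against untreated parental cells and 4.09% for untreated construct cells against parental cells with doxycycline. Gbp3 had 0.648 FPKM in construct cells with doxycycline, 0.598 in untreated construct cells, 0.488 in parental cells with doxycycline and 0.727 in untreated parental cells. Gbp7 had 0.573, 0.509, 0.321 and 0.472 FPKM in the same order of groups. In both genes parental cells with doxycycline were lowest, and the highest group exceeded the lowest 1.49-fold for Gbp3 and 1.78-fold for Gbp7.

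Gbp5 had 0.134 FPKM in construct cells with doxycycline, 0.108 in untreated construct cells, 0.0792 in parental cells with doxycycline and 0.142 in untreated parental cells. Gbp10 had 0.0577 FPKM in untreated construct cells and 0.0608 FPKM in untreated parental cells, and no level could be rebuilt with doxycycline. For Gvin1 the values were 0.0438 FPKM in construct cells with doxycycline, 0.0701 in untreated construct cells, 0.115 in parental cells with doxycycline and 0.124 in untreated parental cells. Both construct groups thus lay below both parental groups for Gvin1. Every summed FPKM between unstimulated groups was below 0.55, the smallest sum in the table, for Gbp5, Gbp10 and Gvin1. For Gbp3 and Gbp7 all these sums were above it.

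The same order of the 4 unstimulated groups was seen in 3 entries of the pseudogenes Gvin-ps1 and Gvin-ps7, which are named as relatives of Gvin1 and could share reads with it. Gvin-ps1 had 0.339 FPKM in construct cells with doxycycline, 0.488 in untreated construct cells, 0.686 in parental cells with doxycycline and 0.698 in untreated parental cells. The transcript entry of Gvin-ps7 had 6.06, 7.19, 9.45 and 9.77 FPKM in that order of groups, and its locus entry 1.93, 2.23, 2.64 and 2.81 FPKM. None of these pairs has a row, so none of the differences was called by the authors.

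Genes upstream of the Gbp promoters also changed. Of 22 genes of interferon-gamma signalling, 16 had a row somewhere, and with interferon-gamma alone 14 were higher and 0 lower, against 25.7% higher over all named genes with a row, with a median fold of 7.92 in the authors' deposited table. Socs1, a feedback inhibitor of JAK kinases, had 95.9 FPKM with interferon-gamma and 0.203 FPKM untreated. Batf2, a transcription factor induced by interferon-gamma, had 153 FPKM with interferon-gamma and 0.334 FPKM untreated, and Nlrc5, the transactivator of MHC class I genes, had 27.5 and 2.91 FPKM in the same order. Socs3 was 12.9-fold higher in the authors' deposited table. With doxycycline present, 10 of the 16 were higher and 0 lower, against 33.7% over all named genes with a row. When doxycycline was added to interferon-gamma, 1 was higher, a minor entry of Batf2 at 2.36-fold, and 1 was lower, the MHC class II transactivator gene Ciita at 2.53-fold, in the authors' deposited table.

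Of 15 inflammasome and pyroptosis genes, only some of which act after guanylate-binding proteins, 10 had a row somewhere. With interferon-gamma alone 6 of these 10 were higher and 0 lower, against 25.7% higher over all named genes with a row, with a median fold of 3.70 in the authors' deposited table. Casp4, the mouse caspase-11 gene that senses cytosolic lipopolysaccharide, had 35.6 FPKM with interferon-gamma and 5.03 FPKM untreated. Casp1, Nlrp3 and the pore-forming gasdermin gene Gsdmd were 5.22-fold, 4.90-fold and 2.5-fold higher in the authors' deposited table. With doxycycline present, 8 of the 10 were higher with interferon-gamma and 0 lower, against 33.7% higher over all named genes with a row. The addition of doxycycline to interferon-gamma raised Casp4, at 94.0 FPKM with both treatments and 35.6 FPKM with interferon-gamma alone, and Il1b, at 3.34 and 0.918 FPKM in that order. Nlrc4 was lower in construct than in parental cells, 2.42-fold with doxycycline and 3.91-fold without it in the authors' deposited table.

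Of 26 genes of vacuole targeting and protein prenylation, 10 had a row somewhere. With interferon-gamma alone 4 of these 10 were higher and 0 lower, against 25.7% higher over all named genes with a row, with a median fold of 4.00 in the authors' deposited table. Pim1, a kinase known to phosphorylate human GBP1, had 93.0 FPKM with interferon-gamma and 10.0 FPKM untreated. Trim21, Rnf31 and the autophagy gene Atg16l1 were 4.19-fold, 3.82-fold and 2.39-fold higher in the authors' deposited table. With doxycycline present, 7 of the 10 were higher and 0 lower, against 33.7% higher over all named genes with a row. When doxycycline was added to interferon-gamma, Ubd and Trim21 were 3.30-fold and 2.42-fold higher in the authors' deposited table.

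The genes most like each member were found by the root mean square difference of log2 levels, after each gene's own mean was removed, over the groups in which the member has a level. Genes with Gm or Rik names were left out of this search, and so were the 5 genes themselves, whose distances from each other were taken separately. Over 6 groups, Gbp3 and Gbp7 were 0.25 apart. Among the genes searched, Cd274, the gene of PD-L1, was nearest to Gbp3, at 0.24, and the interleukin-12 receptor gene Il12rb1 and the costimulatory receptor gene Cd40 came next, at 0.41 and 0.42, both farther from it than Gbp7. Those nearest to Gbp7 were Cd274 at 0.34, Calhm6 at 0.42 and Il12rb1 at 0.53, all farther from it than Gbp3. Over 5 groups, the genes nearest to Gbp5 were Slamf8 at 0.88, then Socs1 and Cfb, and those nearest to Gvin1 were Hao1, Serpinb9b and Phlda1 at 0.20 to 0.24. Gbp10 was compared over 3 groups only, where the nearest were again Slamf8, Socs1 and Cfb. These distances are descriptions over groups that share samples within each gene, and most of these neighbours changed with a pseudocount of 1 FPKM.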

How the data were processed

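Poly(A)-selected, strand-specific libraries were made from RAW264.7 cells, for 18 samples (6 groups), as the labels' protocols describe. Tools listed in the submitters' processing notes, without roles, are Cuffdiff 2.2.1, edgeR, featureCounts, STAR 2.5.3a and FastQC 0.11.5. The genome build is not given in the sources used here. What was deposited is the authors' Cuffdiff output, with a fold as a linear ratio, a total FPKM of both groups and a q-value (a p-value adjusted by the authors) per row, per the file headers. Of its 112230 rows, 77406 name groups other than those of the samples and were not used, which left 34824 over 15 pairs.

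The lower level was rebuilt as total/(1 + fold) and the higher as that times the fold, taking the median over comparisons. For the 5 genes, levels rebuilt from several rows differed by at most 0.355%. This reads the total as a sum. Calls are the authors'. Tests planned for per-sample values could not be run, because the table holds none. Percentages listed refer to 5455 named genes with any row, not to all genes tested. Named genes were all 5 members, up to 4 most changed genes per list and comparison, and the 3 nearest by pattern. Members and lists were chosen with earlier results of these data known. Of 10 macrophage markers 6 had a row, and of T cell, B cell, fibroblast and epithelial markers 0 did, which in a filtered table shows no absence. Alternatives were a q of 0.01, a minimum of 1 FPKM, a pseudocount of 1 FPKM, rescaling and counting entries. Rebuilding was tested on simulated data, with error scored only for levels of 1 FPKM or more and the total simulated as a sum. That test therefore checks neither the unstimulated levels of the 5 genes, all below 1 FPKM, nor the reading of the total. Python 3.11.15, pandas 2.3.3 and numpy 2.4.6 were used. Depth is unknown.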

Additional observations from a re-analysis of the deposited data

How the results depend on the processing

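With a stricter q of 0.01, 4 of the 5 genes were called for interferon-gamma alone against untreated construct cells, and Gbp10 was lost. The count there remained 5 with a minimum or a pseudocount of 1 FPKM, and the 2 called genes with doxycycline present remained 2 under all alternatives. These alternatives only filter listed rows and each gene has 1 entry, so the 5 comparisons with 0 called genes could not change and counting entries could not move any count. Rescaling was uninformative, since the medians of 1.04 and 1.07 on the log2 scale come from entries already limited to 2-fold. Of 25 rebuilt levels of the 5 genes, 10 rest on 1 row, and repeats of the others share the same Cuffdiff value, so their closeness is no independent check. With a pseudocount of 1 FPKM, of the 3 nearest genes 2 were shared for Gbp5, 1 for Gbp7 and 0 for Gbp3, Gbp10 and Gvin1. No paired analysis was possible because the table holds no values per sample, and for that reason leaving out replicates was not run. Depth could not be assessed. Unstimulated levels below 1 FPKM sit in the denominator of every fold, so these folds are imprecise to an unknown degree.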
